A study of Rattus norvegicus with 16 samples.

Results

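This account covers 67 genes, taken by symbol, of the LIM, POU, Pax, Iroquois, Nkx and related homeobox families in 4 brain regions of the rat. They are called homeobox genes for short, although the rule did not check each for a homeodomain. Members were all genes of the array's annotation whose symbols begin with Lhx, Isl, Irx, Pou, Pax, Phox, Tlx, Lbx, Meis, Pbx, Otx, Nkx, Dlx or, as in Six4, the sine oculis prefix, followed by a digit, 67 of 15037 named genes, each read by 1 probe set. The rule used symbols and no measured value, though it was set with earlier results of these data known, and the Hox clusters were left out. The study exposed male Wistar rats of 8 to 10 weeks to 60 minutes of 2.4% sevoflurane, an inhaled anesthetic, or of propofol, an intravenous anesthetic infused at 36 mg/kg/hr once 10 mg/kg had been given. The controls were rats under O2 (oxygen) for sevoflurane and rats given Intralipos, an emulsion with 10% lipid that carries propofol, and all 4 groups breathed 40% oxygen at 6 L/min. From laser-dissected, Nissl-stained frozen sections came both parts of the habenula, lateral (LHb) and medial (MHb), and a pair of nuclei of the hindbrain, solitary (Sol) and medial vestibular (MVe), with 1 array for each of the 16 pairs of region and treatment. How many rats gave tissue to an array, and which regions came from the same rat, the sources used here do not say.

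Homeobox genes encode proteins that bind DNA through a homeodomain, and their combinations fix where along the neural tube a neuron arises and what type it becomes. Many stay active in the adult brain and are used as marks of a neuron's origin. LIM factors (Lhx, Isl) pair with the adaptor Ldb, POU factors carry an additional POU-specific domain, Pax factors a paired domain, and Meis, Pbx and Irx belong to the TALE class, of which Meis and Pbx act as partners of Hox proteins. Pou4f1, a mark of the habenula, is among 6 textbook genes of these regions that were not analysed here. The habenula arises from the diencephalon, where Otx genes are active, whereas the solitary and vestibular nuclei arise in the hindbrain, where Hox genes are.

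The deposited values are log2 signals, so a difference of 1 is a 2-fold difference in signal. The mean over all probe sets lay between 7.20 and 7.21 in the 8 arrays of sevoflurane and O2 and between 6.97 and 6.99 in the 8 arrays of propofol and Intralipos. The arrays thus form 2 sets, and single genes differed between them by more than these means, in both directions. Pou6f1 averaged 6.42 under sevoflurane and 6.48 under O2, against 4.93 under propofol and 4.91 under Intralipos. Tlx1 averaged 4.06 and 4.13 against 4.98 and 4.96. Whether the sets were normalized apart was not tested, and set and treatment pair cannot be told apart. Within-set values are given where 1 set differs from the pooled value by over 1.5 times. Defining markers followed the labels of the dissections: Dbh and Th, enzymes of noradrenaline synthesis, averaged 11.03 and 11.14 in Sol and under 5 in the other regions, 10 of 10 measured MHb markers were lower in LHb (median -4.78), and 7 of 8 MVe markers were lower in Sol (median -4.64). The LHb arrays also carried MHb marker signal, with a log2 summed level of 14.86 to 16.42 against 19.21 to 19.67 in MHb and 10.25 to 10.77 in MVe, and 2 of 7 LHb markers were lower in LHb than in MHb. Of the 67 genes, 37 averaged below 4.78, the median of 1153 control probe sets named neg, which serve here as a rough mark of background. In dissected tissue, fewer cells of a type and less RNA per cell cannot be told apart.

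Treatments served as the replicates of a region in a linear model of region and treatment, and p-values were adjusted over all 15037 genes. Of the 67 homeobox genes, 32 (47.8%) differed between the 4 regions by limma's moderated F test at an adjusted p under 0.05, where 54.1% of all genes did. The share was thus no higher than the background. Of the 32, the highest regional mean was in MHb for 18 (56.2%), in MVe for 8 (25%), in Sol for 6 (18.8%) and in LHb for 0, whereas MHb held it for 34.8% and LHb for 10.4% of all genes that passed. The range of the 4 regional means exceeded 4 on the log2 scale for 4 of the 67 (5.97%, against 2.64% of all genes), which were Lhx9, Otx2, Lhx2 and Meis1. The median range was 0.47 for the 67 genes and 0.62 for all genes. All 5 Irx genes, both Otx genes and all 3 Pbx genes passed, as did 9 of 14 Pou, 4 of 7 Lhx, 3 of 8 Pax, 3 of 10 Nkx, 1 of 2 Meis, 1 of 2 Lbx genes and, of the 4 sine oculis genes, Six4. None of the 5 Dlx, 2 Isl or 2 Tlx genes and not Phox2a passed (0 of these 10, with adjusted p of the F test above 0.05). The 35 genes that did not pass between the 4 regions had a median range of 0.17.

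**Figure D1:**
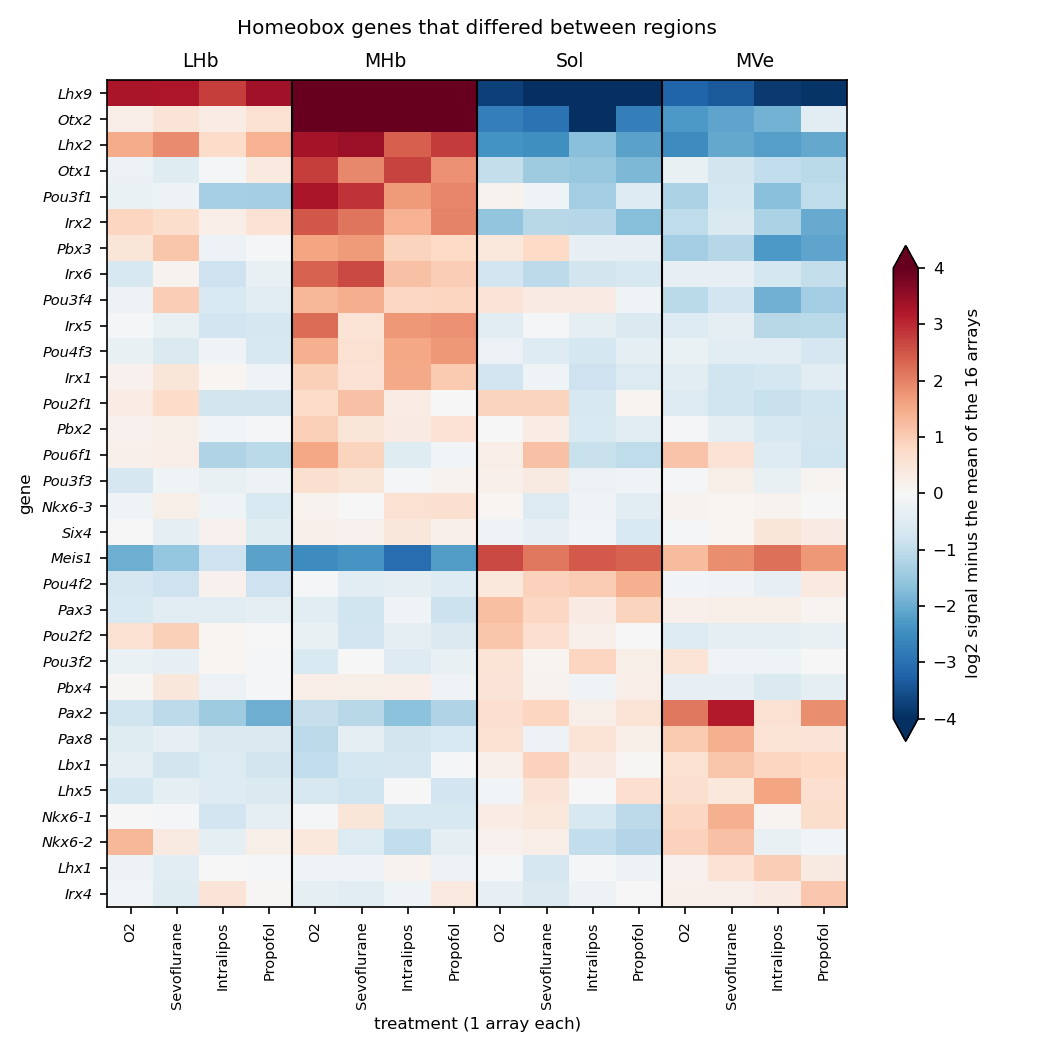
Heat map of the 32 homeobox genes that differed between regions (rows) on the 16 arrays (columns, grouped by region, 1 array per treatment); colour is the log2 signal minus the gene's mean over the 16 arrays and saturates at 4 above or below it. The upper 18 rows have their highest mean in MHb, and the 4 arrays of a region resemble each other across treatments.

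The first contrast set the habenula, with its 8 arrays of LHb and MHb, against the hindbrain nuclei, with 8 arrays of Sol and MVe. Lhx9, Otx2 and Lhx2 stood far higher in the habenula and Meis1 far higher in the hindbrain. Irx2, Irx1 and Otx1 were also higher in the habenula, and Pax2, Pax8, Pax3, Lbx1 and Lhx5 in the hindbrain. In all, 24 of 67 genes (35.8%) passed the test, 15 higher in the habenula and 9 lower, where 38.1% of all genes passed (18.3% higher and 19.8% lower). The 8 arrays of each side did not overlap for 10 of the 67 (14.9%), 5 in each direction, against 3.98% of all genes (2.05% higher and 1.92% lower). The median difference was 0.02 for the 67 genes and -0.01 for all genes.

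Among the LIM genes, Lhx9 read 12.09, 12.07, 11.60 and 12.18 in LHb and 13.03, 13.66, 13.53 and 13.27 in MHb, in the order O2, sevoflurane, Intralipos and propofol. In the same order it read 5.09, 4.82, 4.49 and 4.46 in Sol and 5.64, 5.47, 5.01 and 4.92 in MVe. Every habenular array was thus more than 5 log2 units above every hindbrain array. The difference of 7.69 ± 0.13 (moderated standard error, 8 arrays against 8) had a limma adjusted p of 1.11e-17, and since 2 Sol arrays lay below the mark of background, no fold is given. It came to 7.46 in the sevoflurane and O2 set and 7.92 in the other. Lhx9 encodes a LIM factor of the developing diencephalon, and Lhx2 is its closest relative. Lhx2 read 7.73, 8.13, 6.99 and 7.63 in LHb, 9.59, 9.72, 8.64 and 9.05 in MHb, 3.86, 3.79, 4.58 and 4.11 in Sol, and 3.72, 4.19, 4.03 and 4.22 in MVe. The hindbrain arrays lay below the mark of background and below every habenular array, and the difference was 4.37 ± 0.18 (limma adjusted p = 6.65e-13). Lhx5, a LIM factor of inhibitory interneurons of the hindbrain and spinal cord, ran the other way, at -1.10 ± 0.16 (1.68e-05), with 3.19 to 3.98 in the habenula and 3.88 to 5.58 in the hindbrain, so that the sides overlapped.

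Otx2, which sets up the forebrain and midbrain, read 8.68, 8.94, 8.71 and 9.01 in LHb and 12.85, 12.68, 12.77 and 12.99 in MHb. It read 5.70, 5.46, 4.26 and 5.67 in Sol and 6.11, 6.31, 6.54 and 7.98 in MVe, so the highest hindbrain array, MVe under propofol, still lay below the lowest habenular one. The habenula was 4.83 ± 0.20 higher (limma adjusted p = 7.95e-13). No fold is given, since the Intralipos array of Sol lay below the mark of background for Otx2. Its relative Otx1 was 2.20 ± 0.16 higher (2.59e-09), with 5.62 to 6.50 in LHb, 7.93 to 8.86 in MHb, 4.32 to 5.14 in Sol and 5.03 to 5.80 in MVe, so that LHb and MVe overlapped. Irx2, of the Iroquois genes that pattern the diencephalon and hindbrain, lay between 9.30 and 11.52 in the habenula and between 7.01 and 8.47 in the hindbrain, without overlap, a difference of 2.60 ± 0.16 (2.29e-10). Irx1 was 1.17 ± 0.15 higher in the habenula (3.58e-06) without overlap, and Irx6 (1.37 ± 0.19) and Irx5 (1.13 ± 0.19) were higher with overlap between LHb and the hindbrain. Of the Pbx genes, Pbx3 was 1.59 ± 0.10 higher in the habenula (limma adjusted p = 1.82e-10) and Pbx2 0.65 ± 0.11 (0.000108), both with overlap. For Pbx3, LHb lay between 12.49 and 13.84, Sol between 12.38 and 13.52 and MVe between 10.42 and 11.57. Among POU genes, Pou3f1, Pou3f4, Pou4f3 and Pou2f1 were higher in the habenula by 1.66, 1.04, 0.92 and 0.43, and Pou4f2 and Pou3f2 lower by 0.89 and 0.49 (differences -0.89 and -0.49). The sides overlapped for each of these genes. In LHb, Pou3f1, Pou3f4 and Pou2f1 averaged 5.31, 8.24 and 7.64, below the 5.62, 8.55 and 8.08 of Sol. Pou4f3 averaged 4.16 in LHb and 4.11 in Sol, so these higher values did not hold for LHb against Sol. The Pou2f1 value held its sign in 3 of 4 treatments and was 0.61 in the sevoflurane and O2 set and 0.25 in the other. Its call was lost without any 1 of 7 arrays, at 0.31 to 0.42 (adjusted p 0.0677 to 0.102), those being LHb under O2 and sevoflurane, MHb under Intralipos and sevoflurane, MVe under O2 and sevoflurane, and Sol under Intralipos. Pou2af1, a coactivator of octamer-binding factors that the symbol rule takes in although it is no homeobox gene, was 0.26 higher (0.36 and 0.17 in the 2 sets) at levels of 3.35 to 4.09, and its call was lost without any 1 of 10 arrays (adjusted p 0.0507 to 0.0954).

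On the hindbrain side, Meis1 read 6.74, 7.14, 7.86 and 6.54 in LHb and 6.20, 6.34, 5.66 and 6.46 in MHb, against 11.34, 10.81, 11.14 and 11.05 in Sol and 9.95, 10.57, 10.91 and 10.44 in MVe. The hindbrain arrays all lay above the habenular ones, and the difference of -4.16 ± 0.18 is 17.9-fold (limma adjusted p = 1.92e-12). Pax2, which marks inhibitory interneurons of the hindbrain and spinal cord, lay between 3.17 and 4.34 in the habenula and between 5.36 and 8.30 in the hindbrain, a difference of -2.52 ± 0.19 (5.25e-09). Its relative Pax8 (-1.18 ± 0.16) and the dorsal neural tube genes Pax3 (-1.01 ± 0.13) and Lbx1 (-1.21 ± 0.14) were lower in the habenula without overlap. Lbx1 read 3.60 to 4.52 in the habenula and 4.61 to 5.67 in the hindbrain. The habenular values of all 4 genes lay below the mark of background. So did hindbrain values of Pax3, in MVe (4.54 to 4.66) and in Sol under Intralipos (4.76). Pax8 in Sol under sevoflurane (4.26) and propofol (4.75) and Lbx1 in Sol under propofol (4.61) were below it too. Nkx6-1, a gene of the ventral neural tube, was also lower in the habenula, at -0.52 ± 0.13 (0.00369), with overlap; in the propofol and Intralipos set alone it was at -0.39 and did not pass (0.166). Beside these genes, all 5 measured genes of GABA and glycine output (such as Gad1 and Slc6a5) were lower in the habenula, with a median of -6.66, and 16 of 18 habenular output genes were higher, with a median of 4.66. The part of cell makeup in the differences of the homeobox genes was not tested.

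**Figure D2:**
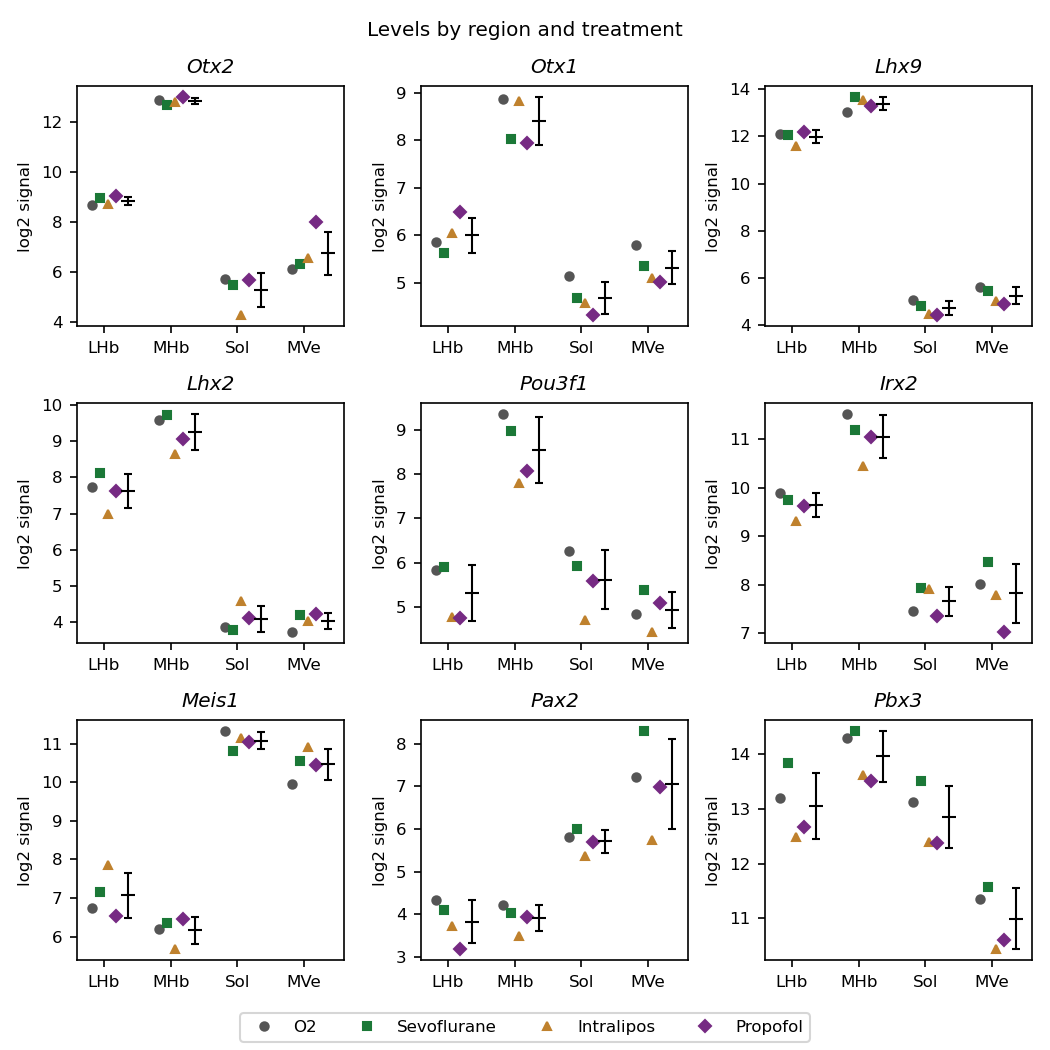
Log2 signal of 9 homeobox genes in each region; each symbol is 1 array and treatments differ by symbol and colour, and the black dash with bars at the right of each region is the mean ± SD of its 4 arrays. Lhx9 and Lhx2 separate the habenula from the hindbrain without overlap, Meis1 and Pax2 do so in the opposite direction, and Otx2 is highest in MHb, at 12.68 to 12.99.

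The 250 bases before the RefSeq start sites of Lhx2 and Meis1, which lie on opposite sides of this contrast, are shown with their GC boxes and CCAAT boxes in capitals (GGGCGG and CCAAT, either strand). The windows are chr3:42535494-42535743 on the plus strand for Lhx2 and chr14:97495084-97495333 on the minus strand for Meis1, in build GRCr8, each written 5′ to 3′ along the gene.
Lhx2: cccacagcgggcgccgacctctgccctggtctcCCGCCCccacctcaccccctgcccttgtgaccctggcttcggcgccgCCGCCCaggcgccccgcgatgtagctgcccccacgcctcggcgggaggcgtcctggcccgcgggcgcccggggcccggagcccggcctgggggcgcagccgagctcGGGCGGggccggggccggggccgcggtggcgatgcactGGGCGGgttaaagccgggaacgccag
Meis1: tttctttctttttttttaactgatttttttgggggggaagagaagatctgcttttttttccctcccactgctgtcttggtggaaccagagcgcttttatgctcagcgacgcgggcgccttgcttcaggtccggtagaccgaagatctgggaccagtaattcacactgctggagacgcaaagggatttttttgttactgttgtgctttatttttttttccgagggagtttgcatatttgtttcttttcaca
The Lhx2 window holds 4 GC boxes at a GC content of 80.8%, and the Meis1 window holds 0 matches to any motif searched at 43.6%. A match, or none, describes only the letters of these windows.

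Within the habenula, most homeobox genes that differed were higher in MHb. Otx2 and Pou3f1 differed most, followed by Otx1, Irx6, Irx5 and Pou4f3, all higher in MHb, whereas Pou2f2, Meis1 and Nkx6-2 were higher in LHb. In all, 19 of 67 genes (28.4%) passed, 3 higher and 16 lower in LHb, where 28.5% of all genes passed, 14.1% higher and 14.4% lower. The share that passed was thus at the background. Among all genes that passed, 2119 were higher and 2170 lower in LHb, or 1819 and 2920 when each array was centred on its median, and the 67 then split 3 to 18. Arrays did not overlap for 14 of the 67 (20.9%; 2 higher and 12 lower in LHb), against 22.4% of all genes (11.3% higher and 11.1% lower). The median difference was -0.09 for the 67 genes and -0.04 for all genes.

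Otx2 was 3.99 ± 0.28 lower in LHb on the log2 scale (LHb minus MHb -3.99), or 15.8-fold (limma adjusted p = 2.46e-09), and the difference lay between -4.17 and -3.75 in the 4 treatments. Otx1 was at -2.40 ± 0.23 (1.29e-07), with a smallest difference of -1.44 under propofol. Both Otx genes were thus higher in MHb under every treatment. Among POU genes, Pou3f1, a factor of neurons and of myelinating Schwann cells, read 5.82, 5.90, 4.78 and 4.75 in LHb and 9.37, 8.98, 7.79 and 8.07 in MHb. The regions did not overlap, and LHb was in the range of the hindbrain arrays (4.42 to 6.25). The difference was -3.24 ± 0.21 (limma adjusted p = 7.07e-10), and came to -3.31 and -3.17 in the 2 array sets. No fold is given, since Pou3f1 in LHb under propofol lay below the mark of background. Pou4f3, a relative of Pou4f1 known from hair cells of the inner ear, read 6.02, 5.19, 6.13 and 6.33 in MHb and 3.87 to 4.44 in the other 12 arrays. It was above the mark of background in MHb alone, with a difference of -1.76 ± 0.19 (9.77e-07). Pou3f4 (-1.19 ± 0.21, 0.000212), Pou6f1 (-0.91), Pou2f1 (-0.66) and Pou3f3 (-0.63) were lower in LHb as well. The sevoflurane and O2 set gave -0.43 for Pou2f1 and -0.99 for Pou3f3, and the other set -0.89 and -0.27. The Pou2f1 call was lost without any 1 of 5 arrays (LHb under O2, Intralipos and propofol, MHb under Intralipos and sevoflurane), at -0.69 to -0.54 (adjusted p 0.0576 to 0.13).

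Of the 5 Iroquois genes, 4 were lower in LHb. Irx6 read 3.32, 4.11, 3.13 and 3.66 in LHb and 6.32, 6.60, 5.14 and 4.94 in MHb, with 2.92 to 3.64 in the hindbrain. Like Pou4f3, it lay above the mark of background only in MHb, and the difference was -2.20 ± 0.26 (limma adjusted p = 2.96e-06). Irx5 read 8.49, 6.80, 7.98 and 8.09 in MHb, the sevoflurane array being low, and 5.49 to 6.18 in LHb (-2.04 ± 0.27, 8.33e-06). Irx2 was at -1.41 ± 0.23 (8.26e-05). Irx1 was at -0.87 ± 0.21 (0.00356), but at -0.43 in the sevoflurane and O2 set alone, where it did not pass (0.345), against -1.31 in the other set. Irx4 did not pass between the habenular parts and was highest in MVe. The RefSeq gene order places Irx4, Irx2 and Irx1 next to each other and Irx6 beside Irx5, so members of the same cluster differed in their highest region (MVe for Irx4, MHb for Irx2 and Irx1), while Irx6 and Irx5 shared theirs.

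The 250 bases before the start sites of the neighbouring genes Irx4, Irx2 and Irx1 are shown because their regional order differed. GC boxes and CCAAT boxes are in capitals as above, and the windows in GRCr8 are chr1:31868090-31868339 (minus strand), chr1:32494931-32495180 (minus strand) and chr1:33122872-33123121 (plus strand).
Irx4: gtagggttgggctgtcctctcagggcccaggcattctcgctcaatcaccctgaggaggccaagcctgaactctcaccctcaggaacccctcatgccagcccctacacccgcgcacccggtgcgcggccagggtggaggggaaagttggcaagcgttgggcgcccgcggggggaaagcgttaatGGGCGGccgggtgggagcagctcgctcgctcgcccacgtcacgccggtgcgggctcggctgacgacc
Irx2: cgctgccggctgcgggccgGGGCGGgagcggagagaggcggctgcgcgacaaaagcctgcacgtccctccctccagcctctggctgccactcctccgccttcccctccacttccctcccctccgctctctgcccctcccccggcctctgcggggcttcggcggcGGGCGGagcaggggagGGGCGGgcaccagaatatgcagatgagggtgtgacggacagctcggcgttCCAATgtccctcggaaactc
Irx1: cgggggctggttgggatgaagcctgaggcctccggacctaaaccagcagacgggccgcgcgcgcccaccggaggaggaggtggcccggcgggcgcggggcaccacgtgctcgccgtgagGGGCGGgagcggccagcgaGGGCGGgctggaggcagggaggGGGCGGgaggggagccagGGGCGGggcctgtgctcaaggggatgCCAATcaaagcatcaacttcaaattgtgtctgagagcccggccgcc
The Irx1 window holds 4 GC boxes and 1 CCAAT box, the Irx2 window 3 GC boxes and 1 CCAAT box, and the Irx4 window 1 GC box. These counts describe the letters, and no regional difference was tested against them.

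Of the LIM and TALE genes, Lhx2 (-1.63 ± 0.25, limma adjusted p = 4.82e-05) and Lhx9 (-1.39 ± 0.19, 1.22e-05) were lower in LHb without overlap, although both were far above the hindbrain level there. Pbx3, a partner of Hox and Meis proteins, read 13.20, 13.84, 12.49 and 12.68 in LHb and 14.30, 14.43, 13.62 and 13.51 in MHb. The ranges overlapped across treatments, but MHb was higher under every treatment (-0.91 ± 0.14, 3.44e-05). Pbx2 was at -0.52, and lost the call without any 1 of 3 arrays (LHb under O2, MHb under O2 and propofol), at -0.47 to -0.45 (adjusted p 0.0635 to 0.0716). Higher in LHb was Pou2f2, the octamer factor known from B cells, at 0.90 ± 0.21 (0.00315), with 5.37 to 6.36 in LHb and 4.63 to 5.10 in MHb; the propofol and Intralipos set alone gave 0.50 (0.146). Of 10 markers of microglia, the immune cells of the brain, 9 were above 0 in the same contrast (5 passed as higher, median 0.47), with a log2 summed level of 10.78 to 11.69 in LHb and 10.05 to 11.09 in MHb. Meis1 was 0.90 ± 0.26 higher (0.0114) with single-treatment differences from 0.08 to 2.19, and the call was lost without the Intralipos array of LHb (0.64, adjusted p 0.0719) or of MHb (0.59, 0.0686), and in either set alone (0.67 and 1.14). Nkx6-2, known for its part in oligodendrocyte maturation, was 0.75 ± 0.22 higher (0.0139), at 5.58 to 7.28 in LHb and 4.98 to 6.39 in MHb, with overlap. That call was lost without any 1 of 3 arrays (LHb under O2 or propofol, MHb under sevoflurane; 0.54 to 0.66, adjusted p 0.0609 to 0.0842) and in either set alone (0.89 and 0.61).

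Markers of other cells moved with the same contrast. All 11 measured oligodendrocyte markers were higher in LHb (11 passed, median 1.84, log2 summed level 19.73 to 20.11 against 18.05 to 18.81 in MHb), in the direction of Nkx6-2, and 9 of 10 astrocyte markers were higher (median 2.48). All 8 endothelial markers were above 0 (7 passed, median 1.18). All 6 ependymal markers were below 0, toward MHb like most of the homeobox genes that passed (5 passed, median -1.27), with a log2 summed level of 6.93 to 7.38 in LHb and 8.41 to 9.35 in MHb. Of 11 choroid plexus markers 10 were lower in LHb (5 passed, 1 other was higher and passed, median -0.81), in the direction of Otx2, a gene that choroid plexus cells also use. The log2 summed level of those 11 markers was 9.30 to 9.92 in LHb, 13.57 to 14.71 in MHb, 9.05 to 15.13 in Sol and 17.01 to 18.28 in MVe, so the choroid signal was highest in MVe, where Otx2 read 6.11 to 7.98 against 12.68 to 12.99 in MHb. Otx2 is also active in the pineal gland. Of 8 pineal markers, 5 were above 0 and 3 below (0 passed as higher and 1 as lower in LHb, median 0.04). The log2 summed level of all 8 was 7.51 to 8.18 in LHb and 7.88 to 8.29 in MHb, with 7.58 to 7.89 in Sol and 7.65 to 7.94 in MVe. The part of other cell types in the differences was not tested beyond these values.

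**Figure D3:**
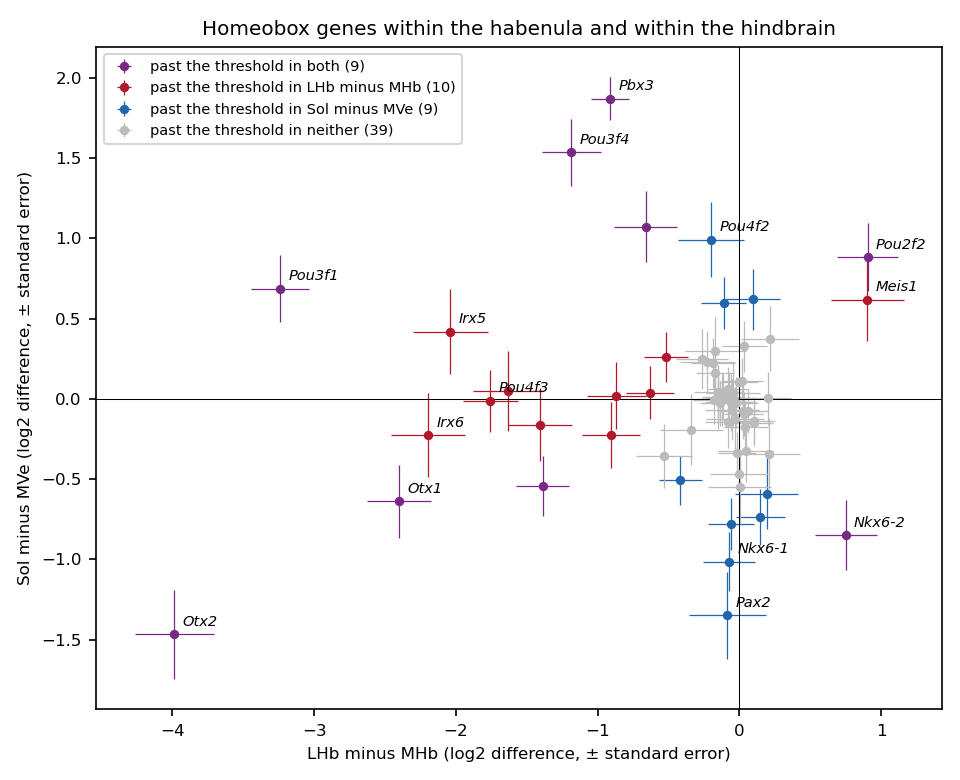
Difference of LHb minus MHb (x axis) and of Sol minus MVe (y axis) for the 67 homeobox genes, in log2 units with moderated standard errors as bars; colour marks the comparisons in which a gene passed. 9 genes passed in both, 10 in the habenula alone, 9 in the hindbrain alone and 39 in neither.

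Within the hindbrain, the genes that differed went both ways. Pbx3, Pou3f4, Pou2f1, Pou4f2, Pou2f2 and Pou3f1 were higher in Sol, and Otx2, Pax2, Nkx6-1, Nkx6-2, Lhx1 and Irx4 were higher in MVe. In all, 18 of 67 genes (26.9%) passed, 8 higher and 10 lower in Sol, where 35.2% of all genes passed (19.3% higher and 16% lower). With each array centred on its median, the split of the 67 was 7 to 13, and that of all genes went from 2901 higher and 2399 lower to 2223 and 3509. Arrays did not overlap for 12 of the 67 (17.9%), against 25.7% of all genes, so both shares of the 67 lay below those of all genes. The median difference was -0.01 for the 67 genes and -0.02 for all genes. In the propofol and Intralipos set alone 8 passed, in the sevoflurane and O2 set alone 12, and 4 genes passed in both sets.

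Pbx3 read 13.13, 13.52, 12.40 and 12.38 in Sol and 11.35, 11.57, 10.42 and 10.60 in MVe. The regions did not overlap, and the difference lay between 1.77 and 1.98 in the 4 treatments, at 1.87 ± 0.14 (limma adjusted p = 4.43e-09). Pou3f4 read 8.81, 8.62, 8.63 and 8.13 in Sol and 7.22, 7.55, 6.38 and 6.92 in MVe, without overlap (1.53 ± 0.21, 1.1e-05). Pou4f2, known from retinal ganglion cells, read 4.78 to 5.79 in Sol and 4.05 to 4.75 in MVe, a difference of 0.99 ± 0.23 (0.00251). It reached the mark of background only in Sol. Pou2f1, the widely expressed octamer factor, was 1.07 ± 0.22 higher in Sol (0.000856), at 1.58 in the sevoflurane and O2 set and 0.57 in the other, where it did not pass (0.156). Pou2f2 was 0.88 ± 0.21 higher (0.00313), at 0.42 (0.206) in the propofol and Intralipos set. Beside it, 10 of 10 microglia markers were above 0 (9 passed, median 1.73), with a log2 summed level of 11.53 to 12.78 in Sol and 9.94 to 10.79 in MVe. Pou3f1 was 0.69 ± 0.21 higher (0.0142), and lost the call without the O2 array of Sol (0.61) or of MVe (0.44, adjusted p 0.0811) or the propofol array of Sol (0.60). It was at 0.97 in the sevoflurane and O2 set and at 0.40 in the other, where it did not pass (0.324). Pax3 (0.62) and Pbx4 (0.60) were higher in Sol as well, and Pax3 lost its call without the Sol array of O2 (0.49) or of propofol (0.56).

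On the vestibular side, Otx2 was lower in Sol by 1.47 ± 0.28 (difference -1.47, limma adjusted p = 0.000387) without overlap. The difference was -0.64 in the sevoflurane and O2 set, where it did not pass (0.0563), and -2.30 in the other. All 11 choroid plexus markers were lower in Sol (10 passed, median -1.17), in the direction of Otx2. Pax2 read 5.81, 5.99, 5.36 and 5.69 in Sol and 7.22, 8.30, 5.74 and 6.99 in MVe, whose Intralipos array was within the range of Sol (-1.35 ± 0.27, 0.000674). It was at -0.84 in the propofol and Intralipos set alone (0.11). All 5 measured genes of GABA and glycine output were lower in Sol as well (5 passed, median -0.98). Lhx1, a LIM factor of Purkinje cells and of inhibitory interneurons, read 3.71, 4.14, 4.54 and 3.91 in MVe and 2.88 to 3.68 in the other 12 arrays. All 16 values lay below the mark of background, and Sol was at -0.78 ± 0.16 (0.000938), or -0.75 in the sevoflurane and O2 set alone, which did not pass (0.0583). Of 10 markers of the cerebellar cortex, 7 were below 0 in this contrast (5 passed as lower and 2 as higher, median -0.47), and Gabra6, a receptor subunit of cerebellar granule cells, averaged 5.68 in MVe and 4.21 in Sol. The part of these cells in the differences of Pax2 and Lhx1 was not tested. Nkx6-1 was at -1.01 ± 0.18 (0.000261), with 5.03 to 6.49 in Sol and 6.19 to 7.50 in MVe. Nkx6-2 was at -0.85 ± 0.22 (0.00508), though at -0.83 in the sevoflurane and O2 set alone it did not pass (0.088), beside 11 of 11 oligodendrocyte markers that were lower in Sol (11 passed, median -2.64). Irx4 was at -0.74 ± 0.17 (0.00244), at -0.80 in the propofol and Intralipos set alone, which did not pass (0.07), and its propofol array of MVe, at 7.01, lay above the other 3 (6.15 to 6.27).

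Smaller values on the vestibular side belonged to Otx1 (-0.64 ± 0.23, limma adjusted p = 0.035), Pax8 (-0.59), Lhx9 (-0.54) and Six4 (-0.51). The Otx1 call was lost in the propofol and Intralipos set alone (-0.62, 0.168) and without any 1 of 4 arrays (MVe under O2 or sevoflurane, Sol under Intralipos or propofol; -0.58 to -0.54) and the Lhx9 call without any 1 of 5 (MVe under O2 or sevoflurane, Sol under Intralipos, propofol or sevoflurane; -0.53 to -0.43). The Six4 call was lost without the propofol array of Sol (-0.43) or of MVe (-0.39), and the sets gave -0.25 (sevoflurane and O2) and -0.76. Pax8 rested on sevoflurane, where Sol read 4.26 and MVe 5.92, and the sets gave -1.05 (sevoflurane and O2) and -0.13: without that array of Sol the difference was -0.30 (0.253), and its call was lost without any 1 of 9 arrays (adjusted p 0.0538 to 0.253). Lbx1 (-0.47 ± 0.20, limma adjusted p = 0.087), Lhx5 (-0.55 ± 0.22, 0.0644) and Meis1 (0.62 ± 0.26, 0.07) did not pass between the hindbrain nuclei. In the sevoflurane and O2 set Lbx1 was at -0.29 and Lhx5 at -0.33, and in the other set at -0.65 and -0.78.

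Of the 9 genes that passed in both the habenular and the hindbrain contrast, 4 had the same sign (Lhx9, Otx1, Otx2 and Pou2f2) and 5 the opposite sign (Nkx6-2, Pbx3, Pou2f1, Pou3f1 and Pou3f4). Pbx3, Pou3f4, Pou2f1 and Pou3f1 were higher in MHb than in LHb and higher in Sol than in MVe.

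Phox2a and Isl1 were not among the genes that passed between the 4 regions. Phox2a, which drives the noradrenergic programme, read 4.47, 4.04, 4.18 and 4.07 in Sol and 3.76 to 3.94 in MVe. Sol was above MVe in 4 of 4 treatments without overlap, but the difference of 0.33 ± 0.16 did not pass (limma adjusted p = 0.121; F test 0.092), and all 16 values were below the mark of background. Genes listed for noradrenergic and visceral neurons, by contrast, passed as higher in Sol for 14 of 17 measured genes and as lower for 0, with a median of 2.89, led by Dbh (7.46), Th (7.02), Cartpt (6.96) and Gal (6.76). Isl1, a factor of motor neurons, read 3.47 to 4.01 in Sol and 3.08 to 3.81 elsewhere (F test 0.111), although 7 of 7 genes listed for the neighbouring vagal motor nucleus lay above 0 in Sol against MVe (5 passed, median 1.71). Pax6, a gene of the eye and forebrain, lay between 6.82 and 8.03 in all regions (F test 0.346). For the dim probe sets, a difference between regions was not detectable at this signal, which is not evidence that it is absent.

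Other genes of the same machinery came from lists, given here by count, where 28.5%, 35.2% and 38.1% of all genes passed in LHb against MHb, in Sol against MVe and in the habenula against the hindbrain. Of 56 measured homeobox genes outside the symbol rule, 7 passed as higher and 4 as lower in LHb against MHb, led by Zfhx4 (3.39 ± 0.20) and Onecut1 (-3.25 ± 0.21). In Sol against MVe 11 were higher and 3 lower, led by Shox2 (3.39) and Hopx (2.74), and in the habenula against the hindbrain 4 were higher and 11 lower, led by Hopx (-5.43) and Onecut1 (2.40). Of 17 cofactors of homeodomain proteins, 4 were higher and 3 lower in LHb against MHb, 8 and 4 in Sol against MVe, and 7 and 7 in the habenula against the hindbrain. Ldb2, an adaptor that LIM factors bind, was 5.55 ± 0.18 higher in LHb than in MHb (limma adjusted p = 1.77e-13) and 3.16 ± 0.18 higher in Sol than in MVe. Within the habenula it thus ran opposite to Lhx9 and Lhx2.

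The next question was whether 60 minutes of anesthesia moved these genes. After sevoflurane, and among genes with 1 sign in 4 of 4 regions, the largest differences from O2 were those of Otx1 (-0.49 ± 0.23), Pou4f3 (-0.40 ± 0.19), Pou5f1 (-0.31 ± 0.14) and Pbx3 (0.34 ± 0.14). None passed: 0 of 67 genes had an adjusted p under 0.05 by limma, as for all genes (0%), and 3 of 67 (4.48%; Otx1, Pou5f1 and Pbx3) had an unadjusted p under 0.05 against 4.99% of all genes. Arrays of sevoflurane and O2 did not overlap for 2 of 67, Pou5f1 and Six3, against 1.04% of all genes. The 67 differences ran from -0.49 to 0.36 with a median of -0.00, beside 0.01 for all genes. Averaged over the 4 regions, the 95% interval of the difference lay within 1 log2 unit of 0 for 67 of 67 genes. The median half-width was 0.39. In single regions, of 1 array against 1, some differences went beyond that limit, such as Irx5 in MHb (-1.69) and Pou3f4 in LHb (1.18). Of the 67 genes, 37 averaged below the mark of background, where a narrow interval does not exclude a change in RNA.

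After propofol, Otx2 stood furthest from its lipid control, at 0.84 ± 0.28 (95% interval 0.26 to 1.43), above 0 in 4 of 4 regions. Other genes with 1 sign in 4 of 4 regions included Six4 (-0.40 ± 0.15), Pax5 (-0.34 ± 0.14), Lhx1 (-0.31 ± 0.16) and Pou5f1 (0.31 ± 0.14). Again 0 of 67 passed, where 3 of 15037 genes (0.0200%) did; the limma adjusted p was 0.64 for Otx2 and 0.646, 0.685, 0.757 and 0.716 for the other 4. An unadjusted p under 0.05 was seen for 5 of 67 (7.46%; Otx2, Six4, Pax5, Pou5f1 and Pou3f1), against 6.92% of all genes. Arrays did not overlap for 2 of 67, Pax5 and Pou5f1, against 1.25% of all genes. The median over the 67 was 0.02 and over all genes 0.01. The interval of the mean over 4 regions reached 1 for Otx2 and stayed within 1 for the other 66 genes. Single regions went beyond 1 for further genes, such as Meis1 in LHb (-1.31) and Pax2 in MVe (1.25), and the limit on dim genes holds here as well.

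The Otx2 value was uneven over regions. Propofol minus Intralipos was 0.30 in LHb and 0.22 in MHb, where Otx2 is highest, and 1.41 in Sol and 1.44 in MVe, where it is low. Choroid plexus markers are given beside it: 10 of 11 were above 0 over the 4 regions (0 passed, median 0.47), with 9 of 11 above 0 in Sol (median 1.01), 11 of 11 in MVe (0.53), 5 of 11 in MHb (-0.02) and 3 of 11 in LHb (-0.11). Ttr, a major transcript of the choroid plexus, differed by 6.10 in Sol and 0.36 in MVe. The Intralipos array of Sol had the lowest Otx2 value of all, 4.26, and the lowest summed level of choroid markers, 9.05. The part of choroid plexus tissue in the value was not tested.

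**Figure D4:**
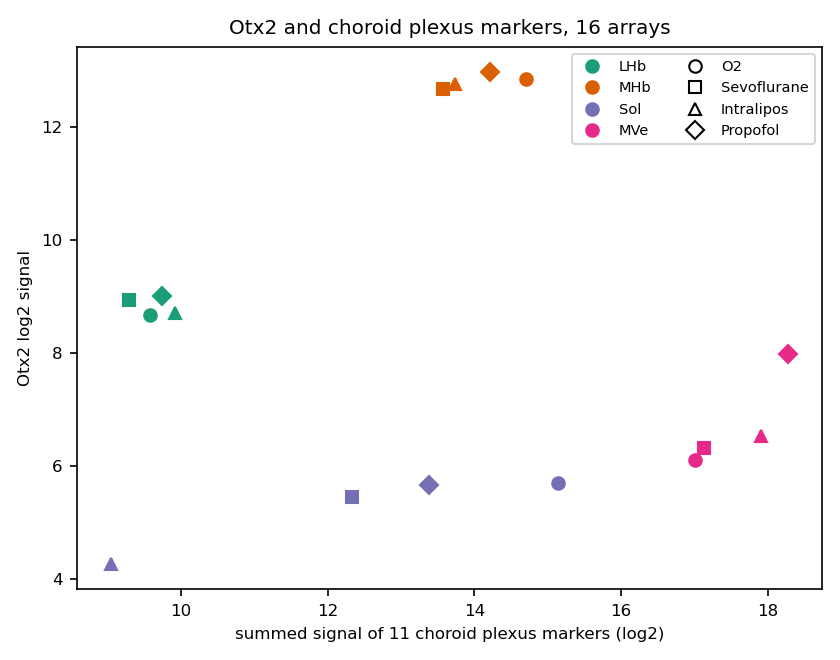
Otx2 log2 signal (y axis) against the log2 of the summed signal of 11 choroid plexus markers (x axis) on the 16 arrays, coloured by region and shaped by treatment. The 4 MHb arrays lie at 12.68 to 12.99 on the y axis at middle values of choroid signal, while the MVe arrays lie at 17.01 to 18.28 on the x axis and at 6.11 to 7.98 on the y axis.

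The difference of both anesthetic effects, (sevoflurane minus O2) minus (propofol minus Intralipos), was tested as 1 contrast. By limma 0 of 67 passed, where 2 genes of all (0.0133%) did, and 4 of 67 (5.97%; Otx2, Nkx6-2, Pou5f1 and Pax5) had an unadjusted p under 0.05 against 5.01% of all genes. The largest values with 1 sign in 4 of 4 regions were Otx2 (-0.83 ± 0.39, limma adjusted p = 0.989), Pou5f1 (-0.62 ± 0.20, 0.946) and Pax5 (0.56 ± 0.20, 0.946). Pou5f1, the pluripotency factor Oct4, thus read below its control under sevoflurane and above it under propofol in 4 of 4 regions, without passing any of these tests. Its 16 values of 3.54 to 4.27 all lay below the mark of background. Among the 56 other homeobox genes and the 17 cofactors, 0 passed under either anesthetic.

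**Figure D5:**
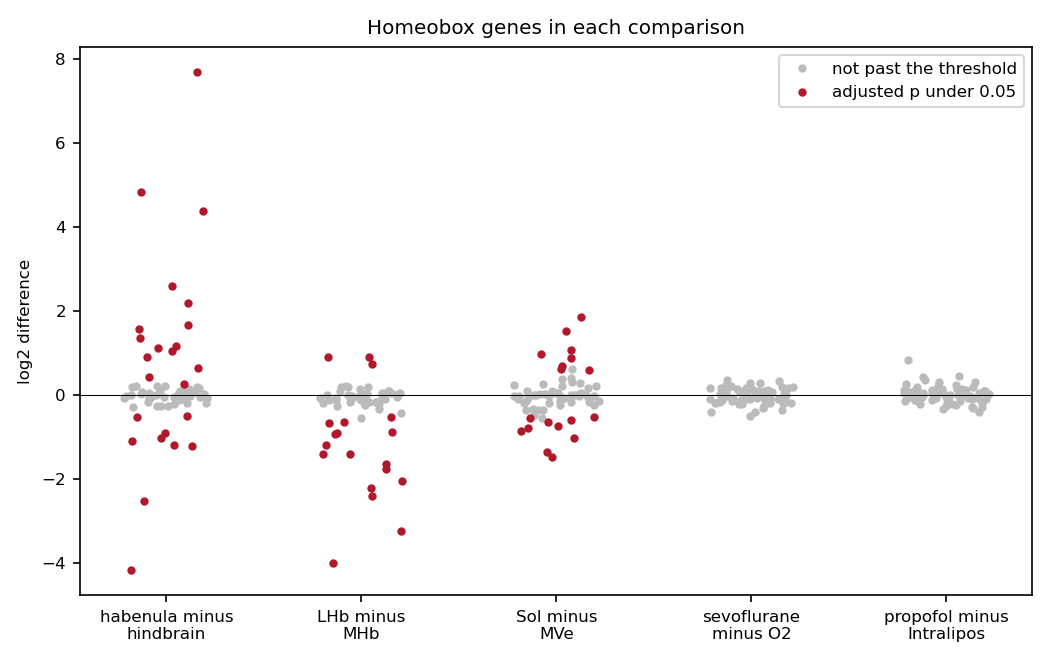
Log2 difference of each of the 67 homeobox genes (points, spread sideways at random) in the 3 region contrasts and the 2 anesthetic contrasts; red points have a limma adjusted p under 0.05. The region contrasts reach from -4.16 to 7.69, and the anesthetic contrasts stay between -0.49 and 0.84.

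Promoter windows of RefSeq (GRCr8) were found for 47 of the 67 genes, 49 windows of 250 bases, 22 of them of genes that differed between regions. They were rich in GC, with a median of 63.2% against 51.2% over all 33469 windows, and of 67% for the 22. The GC box GGGCGG was present in 32 of 49 windows (65.3%, against 30.5% of all windows) and in 17 of the 22. CCAAT was present in 21 (42.9%, against 34%) and the TATA box TATAAA in 1 (2.04%, against 12.9%). TAATTA, a core that many homeodomains bind, was present in 0 windows (4.86% of all windows), the Otx-type TAATCC in 1 (2.04%, against 6.34%), the octamer ATGCAAAT in 0 (1.56%), and the Meis-type TGACAG in 10 (20.4%, against 15.8%), among them Lhx1, Nkx6-1 and Pou6f1 of the 22. Both strands were searched, and none of these shares was tested.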

How the data were processed

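Each of the 16 Affymetrix arrays held 1 region under 1 treatment, from 100 ng of total RNA of laser-dissected tissue, per the labels' protocols. Values on the log2 scale, 1 per probe set, were deposited after processing that the submitters' processing notes credit to Affymetrix Expression Console 1.3.0. That scale was read from the values (2.47 to 19.93), since no source here states it, nor a summarization method or genome build. Of 24834 probe sets, 1646 were controls, 15049 had 1 gene symbol in the platform's annotation, 0 had several and 8139 had none here. The brightest probe set per gene left 15037 genes, with no filter and no further normalization. Each contrast came from lmFit and eBayes of limma 3.58.1, run under R 4.3.3 (region and treatment as terms, 9 residual degrees of freedom, two-sided), with p adjusted over all genes by the Benjamini-Hochberg method at 0.05. The fit was tested on simulated arrays. Errors after ± are moderated standard errors. Because treatments stand in for replicates of a region, regions for replicates of a treatment, and arrays may share a rat, p-values may be too small; the number of arrays limits the precision.

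The members and the gene lists were chosen with earlier results of these data known. Genes were named by rule. Per region contrast, up to 6 genes in each direction were named, those with the largest differences that passed with 1 sign under 4 treatments. Textbook genes of these regions were named whatever their values (6 of them not analysed here). Per anesthetic contrast, the 3 largest changes in each direction with 1 sign in 4 regions were chosen. Of these, Pou1f1 after propofol and Nkx2-8, Six4 and Pbx3 in the difference of both effects are not printed above. Up to 4 genes were named per list. Others that passed are given with values because they complete a count, and were chosen after their values were seen. Promoter windows came from RefSeq (GRCr8) by Entrez gene identifier, and the identifiers of all 67 genes matched its gene table. Alternatives were a mean over probe sets, a filter on dim genes, another variance prior, median centring, quantile normalization, unnamed probe sets, each array set alone, other region terms and each array left out. Figures were drawn with matplotlib 3.10.9 in Python 3.11.15.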

Additional observations from a re-analysis of the deposited data

Results flagged for a closer look

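In 6 of 112 groups of 4 arrays, over 28 of the genes given by name, 1 array stood apart from the other 3 of its region by Dixon's criterion, a number near the 1 in 20 that chance gives. Irx4 read 7.01 in MVe under propofol, above 6.15 to 6.27 in the other MVe arrays. Otx2 read 4.26 in Sol under Intralipos, below 5.46 to 5.70. Pou4f2 read 4.54 in LHb under Intralipos, above 3.54 to 3.69. Pax3 read 3.82 in LHb under O2, below 4.01 to 4.04, and 4.54 in MVe under propofol, below 4.64 to 4.66. Phox2a read 3.32 in MHb under propofol, below 3.89 to 3.92. Apart from Irx4, these lone values lie below the median of the probe sets named neg (4.78).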

How the results depend on the processing

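Over 57 results chosen by the naming rules above, 1310 of 1338 alternative values kept their direction and their side of the threshold. Of the rest, 28 kept the direction and no longer passed, and 0 reversed. The 57 include anesthetic results that never passed, and many alternatives left out only 1 array, so a high share was likely from the outset. Results given only to complete a count are outside this tally, such as Pou2af1 in the habenula against the hindbrain and Pax8 in Sol against MVe. Their calls were lost without any 1 of 10 and of 9 arrays, respectively. With only genes at or above the median level, 12 of the 67 could be tested, and 9 passed between regions, 8 in LHb against MHb, 6 in Sol against MVe and 9 in the habenula against the hindbrain; the counts fall because fewer genes were tested. With each array set alone, 11 of the 19 genes of LHb against MHb passed in both sets. Only 4 of the 18 of Sol against MVe did, and 20 of the 24 of the habenula against the hindbrain. In the propofol and Intralipos arrays alone 8 passed in Sol against MVe. With each array left out in turn, 30 to 31 passed between regions, 17 to 20 in LHb against MHb, 13 to 19 in Sol against MVe, 22 to 24 in the habenula against the hindbrain and 0 under any anesthetic contrast; 0 also passed there under the other alternatives run. Centring each array on its median moved the median of all genes from -0.04 to -0.14 in LHb against MHb and from -0.02 to -0.17 in Sol against MVe. Of all genes, 1819 were then higher and 2920 lower in LHb (2119 and 2170 before), 2223 and 3509 in Sol (2901 and 2399), and 3430 and 2518 in the habenula (2755 and 2981), while the homeobox genes split 3 to 18, 7 to 13 and 15 to 9 (3 to 16, 8 to 10 and 15 to 9 before). The fit compared treatments within regions and regions within treatments, and when each region of each array set had a term of its own, 0 of 67 passed for either anesthetic or their difference. Pairing by rat was not made, because the labels do not tie arrays to rats. Signal near background limits the dim genes: 37 of 67 averaged below the median of the probe sets named neg.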
